A study of Mus musculus with 4 samples.

Results

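The genes described here are those of the tight junctions of brain endothelium, 9 in all: Cldn5, Ocln, Marveld2, Lsr, F11r, Jam2, Jam3, Esam and Tjp1. They were chosen by name among the 20194 genes listed in the 2 tables of counts, and all 9 were listed at both embryonic stages, as were 16181 genes in all. The libraries came from mouse brain endothelial cells (C57BL/6), 1 library for each of 4 groups: UCP2f/f;Tie2-cre at E18, WT at E18, UCP2f/f;Tie2-cre at E15 and WT at E15. In UCP2f/f;Tie2-cre embryos, called KO below, Cre recombinase driven by the Tie2 promoter, which is active in endothelial and in most blood cells, recombines a floxed Ucp2 gene. Ucp2 encodes a carrier of the inner mitochondrial membrane. No source used here tells how the cells were isolated, whether embryos were pooled or which exons were floxed. The WT group carries no further allele in the labels.

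Tight junctions seal the cleft between neighbouring endothelial cells, and in brain vessels they give the blood-brain barrier its low paracellular permeability. Claudins form the strands, occludin and its MARVEL-domain relatives are built into them, and angulins recruit tricellulin to the points where 3 cells meet. Junctional adhesion molecules of the immunoglobulin superfamily lie beside the strands, and scaffolds such as ZO-1 tie the membrane proteins to actin.

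The reads in genes were 21992660 in the KO and 19075407 in the WT library at E18, and 16328300 in the KO and 15542930 in the WT library at E15. Levels are read counts per 1000000 reads in genes (CPM). There were no replicates, so a ratio compares 2 libraries and carries no p-value, and its 95% interval covers counting error only. The libraries carried the markers of their label: all 13 pan-endothelial markers outside the 9 genes exceeded 1 CPM in every library, summing to 15320 CPM in KO and 15550 CPM in WT at E18, and 15180 CPM in KO and 14020 CPM in WT at E15. Ucp2 had 149.9 CPM in the KO and 351.0 CPM in the WT library at E18, and 163 CPM in the KO and 276 CPM in the WT library at E15, lower in KO at both stages but still detected. At E18 the Y-linked gene Ddx3y had 0 reads in the KO and 5826 in the WT library, and Xist had 547 reads in the KO and 0 in the WT library. At E15 Xist had 2109 reads in the KO and 2549 in the WT library. Ddx3y was not listed at E15, so only Xist can be said to differ between the stages too. The 2 libraries at E18 may thus differ in the sex of the embryos. At E18 the difference in Ddx3y and Xist coincides with genotype and cannot be told apart from it. The part of these genes, and of embryo sex, in the genotype ratios at E18 and in the stage ratios was not tested.

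Promoter sequences were at hand in RefSeq for 6 of the 9 genes, and in 3 of these the start matched the gene start in the count tables to the base. They are shown because Cldn5 was the most abundant of the 9 genes, Ocln had ratios of opposite sign at the 2 stages and Marveld2 lies beside Ocln on the same strand, 43239 bases away. Each run holds the 250 bases before the start on the gene's own strand (GRCm38.p6), 5′ to 3′, with matches to the searched motifs in capitals.
Cldn5, chr16:18776597-18776846, plus strand: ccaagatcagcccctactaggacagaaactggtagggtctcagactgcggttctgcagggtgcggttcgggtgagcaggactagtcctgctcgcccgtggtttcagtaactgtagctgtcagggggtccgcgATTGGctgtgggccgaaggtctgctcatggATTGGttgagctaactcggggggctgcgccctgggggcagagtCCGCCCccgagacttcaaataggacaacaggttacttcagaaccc
Ocln, chr13:100552719-100552968, minus strand: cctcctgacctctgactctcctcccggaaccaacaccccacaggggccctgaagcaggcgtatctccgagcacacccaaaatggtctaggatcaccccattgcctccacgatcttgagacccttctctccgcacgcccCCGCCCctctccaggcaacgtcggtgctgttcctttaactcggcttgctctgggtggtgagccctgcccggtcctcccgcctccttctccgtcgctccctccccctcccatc
Marveld2, chr13:100616972-100617221, minus strand: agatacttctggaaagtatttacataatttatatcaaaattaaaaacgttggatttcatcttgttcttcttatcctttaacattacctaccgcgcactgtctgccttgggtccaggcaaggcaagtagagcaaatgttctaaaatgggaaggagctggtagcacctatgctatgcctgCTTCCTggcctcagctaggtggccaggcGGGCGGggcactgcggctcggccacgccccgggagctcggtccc
Motifs were searched on both strands, and none of the matches overlapped another. The GC box GGGCGG stood in all 3 windows, at 45 bases before the start in Cldn5, 112 in Ocln and 44 in Marveld2. It was present in 32.7% of the 32851 promoter windows of the same length. The CCAAT box, read as ATTGG here, occurred at 118 and 88 bases before the start of Cldn5 and in neither of the other windows, against 33.9% of all windows. One Ets-type match, AGGAAG, lay 72 bases before the start of Marveld2, a word found in 29.5% of all windows. The Snail-type E-box CACCTG (17.2% of windows), the forkhead word TGTTTAC (3.17%) and the Sox or TCF word CTTTGT (16.5%) were not in these 3 windows. The Cldn5 window held 12 CpG dinucleotides with 59.6% G and C, the Ocln window 14 with 64.0%, and the Marveld2 window 10 with 50.4%.

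Cldn5 (ENSMUSG00000041378, chromosome 16, 18776847 to 18778260, plus strand) encodes claudin-5, the main claudin of brain endothelial strands. It had 8064 CPM in the KO and 7235 CPM in the WT library at E18, and 7583 CPM in the KO and 6151 CPM in the WT library at E15. The WT library at E15 was the lowest of the 4 and the KO library at E18 the highest, 1.31 times above it. This single gene took 0.806% of all reads in KO and 0.724% in WT at E18, and 0.758% in KO and 0.615% in WT at E15. Per kilobase of exon it ranked second at E18 in both libraries, behind Bsg, of 17305 genes with a known exon length, and first at E15 of 18988.

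Ocln (ENSMUSG00000021638, chromosome 13, 100496507 to 100552718, minus strand) encodes occludin, the MARVEL-domain protein of the strands. It had 442 CPM in the KO and 521 CPM in the WT library at E18, and 444 CPM in the KO and 364 CPM in the WT library at E15. The KO libraries were at nearly one level, and the WT libraries were the highest and the lowest of the 4. Marveld2 (ENSMUSG00000021636, chromosome 13, 100595957 to 100616971, minus strand) encodes tricellulin, the MARVEL protein of tricellular contacts. It had 65.7 CPM in the KO and 51.6 CPM in the WT library at E18, and 51.9 CPM in the KO and 41.0 CPM in the WT library at E15. The KO library was the higher at both stages.

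Lsr (ENSMUSG00000001247, chromosome 7, 30957770 to 30973464, minus strand) encodes angulin-1, which brings tricellulin to tricellular contacts. It had 184 CPM in the KO and 192 CPM in the WT library at E18, and 182 CPM in the KO and 169.5 CPM in the WT library at E15, the narrowest spread of the 9 genes at 1.13 times from lowest to highest together with Esam. Its exons share 946 bases with the antisense gene Gm4673, which had 47 reads in KO and 36 in WT at E18 and 87 in KO and 91 in WT at E15, against 4046, 3657, 2979 and 2635 reads of Lsr in the same libraries. No source used here says whether counting took strand into account, so reads in the shared bases cannot be assigned to either gene.

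The junctional adhesion molecules differed widely in level. F11r (ENSMUSG00000038235, chromosome 1, 171437535 to 171464603, plus strand) encodes JAM-A and had 383 CPM in the KO and 329 CPM in the WT library at E18, and 378 CPM in the KO and 367 CPM in the WT library at E15. Jam2 (ENSMUSG00000053062, chromosome 16, 84774123 to 84825928, plus strand) encodes JAM-B, a binding partner of JAM-C, and had 421.5 CPM in the KO and 365 CPM in the WT library at E18, and 375 CPM in the KO and 342 CPM in the WT library at E15. For both genes the KO library was the higher at either stage, by 1.03 to 1.17 times. Jam3 (ENSMUSG00000031990, chromosome 9, 27097384 to 27155421, minus strand), the gene of JAM-C, had 196 reads in the KO and 149 in the WT library at E18, and 124 in the KO and 154 in the WT library at E15, which is 8.91, 7.81, 7.59 and 9.91 CPM in the same order. It was the weakest of the 9 genes and shares 1159 exonic bases with the antisense gene Gm48796, which had 22 reads in KO and 40 in WT at E18, and 19 in KO and 14 in WT at E15. Per kilobase of exon, Jam2 stood 25.0 times above Jam3 in KO and 24.8 times in WT at E18, and 26.1 times in KO and 18.3 times in WT at E15. The shared bases are part of the exon length of Jam3, and how reads in them were counted is not known.

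Esam (ENSMUSG00000001946, chromosome 9, 37528078 to 37538319, plus strand), an immunoglobulin-type adhesion molecule of endothelial cells, had 1679 CPM in the KO and 1572 CPM in the WT library at E18, and 1484 CPM in the KO and 1490.0 CPM in the WT library at E15. Both E18 libraries were above both E15 libraries. Tjp1 (ENSMUSG00000030516, chromosome 7, 65296165 to 65527781, minus strand) encodes the scaffold ZO-1. It had 363 CPM in the KO and 461.5 CPM in the WT library at E18, and 383 CPM in the KO and 375 CPM in the WT library at E15. The WT library at E18 stood above the other 3, which lay within 363 to 383 CPM.

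**Figure D1:**
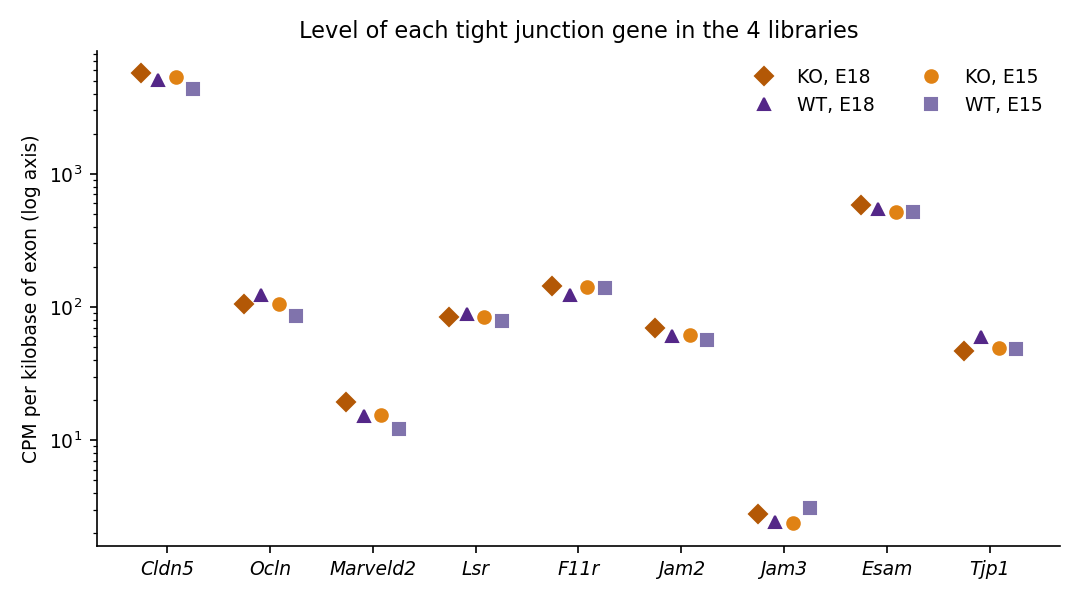
Level of each of the 9 genes in CPM per kilobase of exon on a log axis, 1 point per library, in the order KO and WT at E18, then KO and WT at E15. Cldn5 lies between 4344 and 5695 CPM per kilobase in the 4 libraries, and Jam3 between 2.37 and 3.10.

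Levels of different genes are compared per kilobase of exon, using the union of annotated exons. The order was Cldn5, Esam, F11r, Ocln, Lsr, Jam2, Tjp1, Marveld2 and Jam3 in all 4 libraries. Cldn5 made up 84.3% of the summed level of the 9 genes in KO and 83.4% in WT at E18, and 84.6% in KO and 82.2% in WT at E15. Esam followed with 8.67% in KO and 8.95% in WT at E18, and 8.17% in KO and 9.84% in WT at E15. F11r and Ocln could hardly be separated in the WT library at E18, with 123.5 and 123.4 CPM per kilobase, while F11r was clearly above Ocln in the KO library at E18 (144 and 105) and at E15 in KO (142 and 105) and WT (138 and 86.1). Over the 4 libraries the ranges of Ocln (86.1 to 123.4) and Lsr (78.1 to 88.3) overlapped, as did those of Jam2 (56.6 to 69.7) and Tjp1 (46.5 to 59.1). The other neighbours in the order did not overlap. The exon lengths of Lsr and Jam3 include 946 and 1159 bases shared with antisense genes. How reads in those bases were counted is not known, so the levels per kilobase and places of both genes are less certain.

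Relations between genes within a library do not depend on the scaling of libraries. Cldn5 exceeded Ocln per kilobase 54.4 times in KO and 41.4 times in WT at E18, and 50.9 times in KO and 50.5 times in WT at E15. Ocln exceeded Tjp1 per kilobase 2.25 times in KO and 2.09 times in WT at E18, and 2.15 times in KO and 1.79 times in WT at E15. Ocln exceeded its MARVEL relative Marveld2 5.39 times in KO and 8.08 times in WT at E18, and 6.86 times in KO and 7.11 times in WT at E15. Of these relations, Ocln to Marveld2 at E18 differed most between the KO and the WT library.

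The first comparison asks what endothelial deletion of Ucp2 leaves of the junction transcripts. At E18, 0 of the 9 genes passed 2-fold between the KO and the WT library, where 11% of the 12349 genes compared did. At E15 it was also 0 of 9, where 10.1% of 12633 genes did. The median log2 ratio of the 9 genes was 0.16 at E18 and 0.11 at E15, against 0.003 and -0.007 over all genes. At E18, 6 genes lay above 0 and 3 below. At E15 it was 7 above and 2 below, and of the 7 F11r and Tjp1 crossed to just below 0 when libraries were scaled by pan-endothelial markers (-0.01 and -0.02). Of the 15 pan-endothelial markers, with Cldn5 and Esam among them, 6 lay above 0 at E18 and 9 below, with a median of -0.05. At E15, 5 of them lay above 0, 1 past 2-fold, and 10 below, with a median of -0.02. The median absolute log2 ratio of the 9 genes was 0.21 at E18 and 0.13 at E15, and that of the genes with at least 5 CPM in both libraries was 0.22 and 0.21.

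Marveld2 had nearly the same ratio at both stages, a log2 ratio of 0.35 at E18 (interval 0.23 to 0.46) and 0.34 at E15 (0.19 to 0.49), 1.27 times in both. Cldn5 was higher in KO at both stages as well, with 0.16 at E18 (0.15 to 0.17) and 0.30 at E15 (0.29 to 0.31). Jam2 had 0.21 at E18 (0.16 to 0.25) and 0.13 at E15 (0.08 to 0.19). These 3 genes, of the claudin, MARVEL and JAM families, were the only ones of the 9 whose counting interval lay above 0 at both stages under scaling by library totals.

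Ocln was lower in KO at E18, with a log2 ratio of -0.24 (interval -0.28 to -0.20), and higher in KO at E15, with 0.29 (0.24 to 0.34). Tjp1 was lower in KO at E18, with -0.35 (-0.39 to -0.30), and differed by less than its counting error at E15, with 0.03 (-0.02 to 0.08). Lsr had -0.06 at E18 (-0.12 to 0.01) and 0.11 at E15 (0.03 to 0.18). F11r had 0.22 at E18 (0.17 to 0.27) and 0.04 at E15 (-0.01 to 0.09), and Esam 0.09 at E18 (0.07 to 0.12) and -0.01 at E15 (-0.03 to 0.02). Jam3, with few reads, had 0.19 at E18 (-0.12 to 0.51) and -0.38 at E15 (-0.74 to -0.03).

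**Figure D2:**
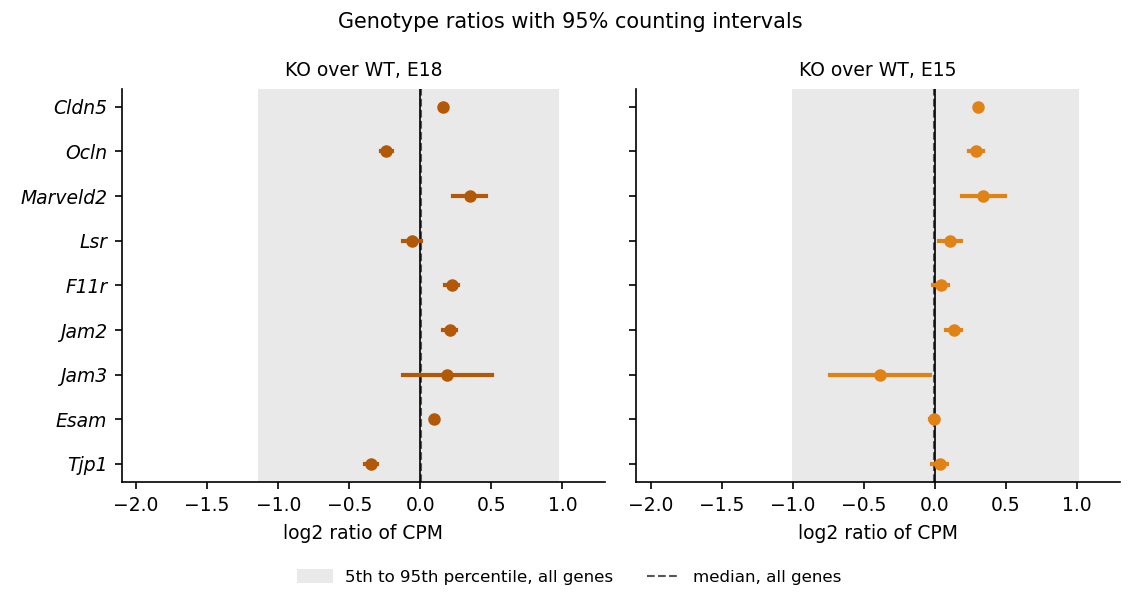
Log2 ratio of CPM, KO over WT, at E18 (left) and E15 (right), with the point for the ratio and the line for its 95% counting interval. The grey band spans the 5th to 95th percentile of all genes compared (-1.14 to 0.97 at E18 and -1.0 to 1.01 at E15), the dashed line their median, and all 9 genes lie inside the band.

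The difference between the stages can be written as the log2 genotype ratio at E18 minus that at E15, with an interval from counting error alone and no test. It was -0.53 for Ocln (interval -0.59 to -0.46), -0.38 for Tjp1 (-0.45 to -0.31), -0.17 for Lsr (-0.26 to -0.07) and -0.15 for Cldn5 (-0.16 to -0.13). On the other side, Jam3 had 0.57 (0.11 to 1.03), F11r 0.18 (0.11 to 0.25), Esam 0.10 (0.07 to 0.14) and Jam2 0.07 (0.005 to 0.14), and Marveld2 was at 0.007 (-0.18 to 0.20). Differences of this size were common: among the 9052 genes with at least 5 CPM in every library, whose median absolute difference was 0.29, 26.1% were at or beyond the value of Ocln, 39.7% at or beyond that of Tjp1 and 74.0% at or beyond that of Cldn5.

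Markers of several other cell types moved with these comparisons. The 12 mural cell markers summed to 11690 CPM in the KO and 9372 CPM in the WT library at E18, and to 4901 CPM in the KO and 7347 CPM in the WT library at E15, and none was at 0. The 13 microglia and macrophage markers summed to 160 CPM in the KO and 91.0 CPM in the WT library at E18, and to 289 CPM in the KO and 567 CPM in the WT library at E15, again with none at 0. Neuronal markers were at 49.7 CPM in the KO and 57.4 CPM in the WT library at E18, with 1 at 0 in KO, and at 63.6 CPM in the KO and 122 CPM in the WT library at E15. Radial glia and astrocyte markers summed to 658 CPM in the KO and 736 CPM in the WT library at E18. At E15 their sum was 799 CPM in KO and 718 CPM in WT. Erythroid markers summed to 721 CPM in the KO and 917 CPM in the WT library at E18, and to 513 and 404 CPM at E15. Fewer cells of a type and less RNA per cell cannot be told apart in such libraries, and the part of these markers in the ratios of the 9 genes was not tested. Markers of epithelium and choroid plexus, tissues that also make tight junctions, were low: they summed to 18.9 CPM in the KO and 3.88 CPM in the WT library at E18, and to 6.31 CPM in the KO and 30.9 CPM in the WT library at E15, and 6 of the 9 listed at E18 were at 0 in WT, as were 6 of the 13 listed at E15 in KO.

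The second comparison follows the junction genes over late embryonic development. Between E18 and E15, 0 of the 9 genes passed 2-fold in KO, where 19.5% of 12465 genes did, and 0 of 9 in WT, where 14.5% of 12515 genes did. The all-gene median of the log2 ratio was -0.10 in KO and -0.12 in WT, and the median of the 9 genes was 0.09 in KO and 0.18 in WT. Relative to the all-gene median, 9 of the 9 genes lay above it in KO and 7 in WT. The 15 pan-endothelial markers, with Cldn5 and Esam among them, also had medians above it, 0.09 in KO and 0.09 in WT. When libraries were scaled by pan-endothelial markers, 5 of the 9 genes lay above 0 in KO and 5 in WT. The comparison in WT and the genotype comparison at E15 share the WT library at E15, and the others share libraries in the same way, so they are not independent of each other. Mural markers summed to 11690 CPM at E18 and 4901 CPM at E15 in KO, and to 9372 CPM at E18 and 7347 CPM at E15 in WT, and microglial markers to 160 CPM at E18 and 289 CPM at E15 in KO, and to 91.0 CPM at E18 and 567 CPM at E15 in WT. Radial glia and astrocyte markers summed to 658 CPM at E18 and 799 CPM at E15 in KO, and to 736 and 718 CPM in WT. Marker by marker, their median log2 ratio of E18 over E15 was 0.98 in KO and 1.13 in WT. In KO 4 of 7 measured lay above 0 and 3 below, with 3 past 2-fold higher and 0 lower. In WT 5 of 8 lay above 0 and 3 below, with 4 past 2-fold higher and 0 lower. The part of all these markers in the stage ratios was not tested.

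Ocln had a log2 ratio of E18 over E15 of -0.01 in KO (interval -0.05 to 0.04), which is 0.10 above the all-gene median, and of 0.52 in WT (0.47 to 0.57), 0.64 above that median. Tjp1 had -0.08 in KO (-0.13 to -0.03) and 0.30 in WT (0.25 to 0.35). With the TMM factors of edgeR, which move the stage ratios by about the all-gene shift, Ocln and Tjp1 in KO came out at 0.11 and 0.04, so the sign of neither holds in KO.

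Marveld2 had the same ratio in both genotypes, 0.34 in KO (0.22 to 0.46) and 0.33 in WT (0.19 to 0.48). Cldn5 had 0.09 in KO (0.08 to 0.10) and 0.23 in WT (0.22 to 0.25). Esam had 0.18 in KO (0.15 to 0.20) and 0.08 in WT (0.05 to 0.10), and Jam2 had 0.17 in KO (0.12 to 0.22) and 0.10 in WT (0.04 to 0.15), although both were below 0 in WT when libraries were scaled by pan-endothelial markers (-0.03 and -0.01). Lsr was at 0.01 in KO (-0.06 to 0.08) and 0.18 in WT (0.10 to 0.25), and was just below 0 in KO under that scaling. F11r was at 0.02 in KO (-0.03 to 0.07), with its sign turned under the same scaling, and at -0.16 in WT (-0.21 to -0.11), which is -0.04 from the all-gene median. Jam3 had 0.23 in KO (-0.10 to 0.57) and -0.34 in WT (-0.68 to -0.01).

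**Figure D3:**
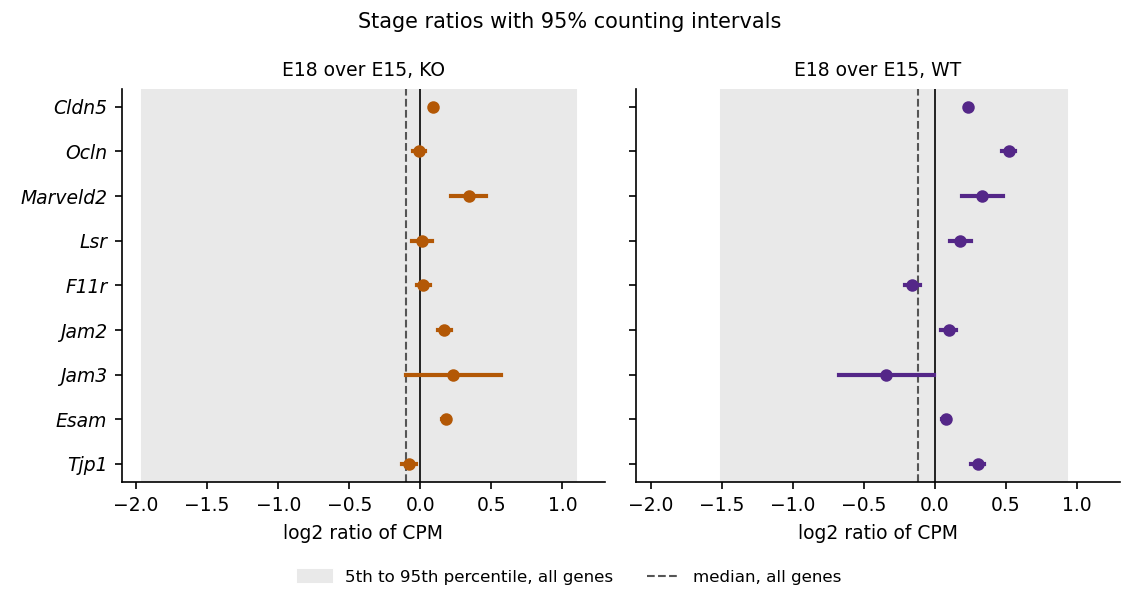
Log2 ratio of CPM, E18 over E15, in KO (left) and WT (right), with points, 95% counting intervals, grey bands and dashed medians as for the genotype ratios. The dashed all-gene medians lie at -0.10 and -0.12, and Ocln stands at -0.01 in KO and at 0.52 in WT.

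The additive test takes the 2 stages as the replicates of the genotype and the 2 genotypes as the replicates of the stage, in edgeR's quasi-likelihood F test on all 4 libraries with Benjamini-Hochberg adjustment. It leaves 1 residual degree of freedom, and a genotype effect limited to a stage counts as noise in it. For genotype, 0 of the 9 genes passed an adjusted p of 0.05, where 0.0224% of 13416 genes did. For stage, 0 of 9 passed, where 1.33% did. At an unadjusted p under 0.05 it was 0 of the 9 for genotype, where 678 of 13416 genes were, and 2 of the 9 for stage, where 2236 of 13416 genes were. With library totals alone in place of TMM factors it was 1 of the 9 for genotype (Cldn5), where 672 of 13416 genes were. For stage it was then 0 of the 9, where 2264 of 13416 genes were. DESeq2's Wald test called 0 of the 9 genes in either term, where it called 47 of 10815 genes for genotype and 719 of 12375 for stage. At an unadjusted p under 0.05 it had 0 of the 9 for genotype, with 604 genes in all, and 2 of the 9 for stage, with 1986 in all.

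For genotype, Cldn5 had a log2 difference of 0.23 (SE 0.10, edgeR quasi-likelihood adjusted p = 0.990), higher in KO in both pairs of libraries, and Marveld2 0.34 (SE 0.18, edgeR adjusted p = 0.990), also in both pairs. Ocln had 0.02 (SE 0.16), Tjp1 -0.16 (SE 0.14) and Jam3 -0.10 (SE 0.39). For stage, Marveld2 had 0.45 (SE 0.18, edgeR adjusted p = 0.277), Ocln 0.37 (SE 0.16, edgeR adjusted p = 0.317) and Cldn5 0.27 (SE 0.10, edgeR adjusted p = 0.218). The median over the 9 genes was 0.04 for genotype and 0.24 for stage, and over all genes tested -0.02 for both.

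**Figure D4:**
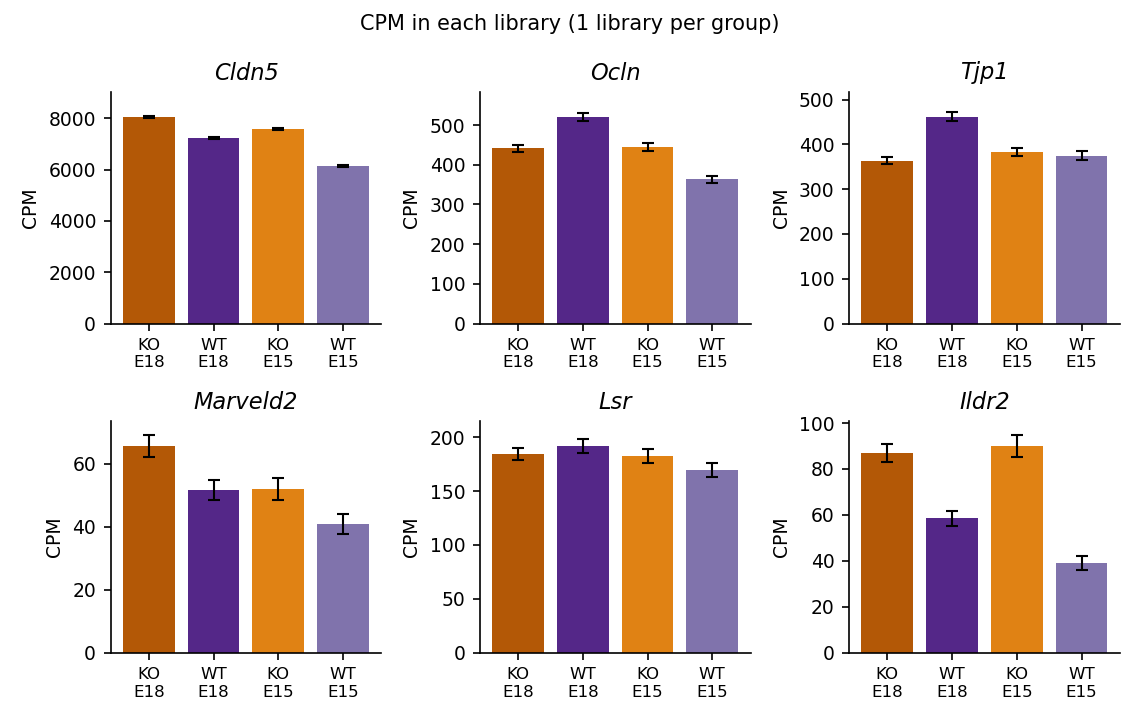
CPM in the 4 libraries for 5 of the 9 genes and for Ildr2, an angulin outside the 9, with bars from 0 and error lines for the 95% counting error of each library. Ocln and Tjp1 are highest in WT at E18 (521 and 461.5 CPM), and Ildr2 is lowest in WT at E15 (39.1 CPM).

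The wider tight junction machinery was read from a list of 62 further gene symbols, of which 48 were listed in the tables. The claudins other than Cldn5 were weak. Cldn12 had 14.3 CPM in the KO and 15.3 CPM in the WT library at E18, and 14.6 CPM in the KO and 13.6 CPM in the WT library at E15, and the others reached at most 3.36 CPM (Cldn6 in WT at E18). Cldnd1, whose product only resembles the claudins, had 162.5 CPM in the KO and 149.8 CPM in the WT library at E18, and 163 CPM in the KO and 149 CPM in the WT library at E15. At E18, 3 of 33 measured genes of this list were past 2-fold higher and 1 lower in KO, with a median log2 ratio of -0.07 against 0.003 over all genes. At E15 it was 2 higher and 1 lower of 30, with a median of -0.09 against -0.007. Over all genes compared, 11% were past 2-fold in either direction at E18 and 10.1% at E15.

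Ildr2, the gene of angulin-3 and a relative of Lsr, had 87.1 CPM in the KO and 58.5 CPM in the WT library at E18, and 90.0 CPM in the KO and 39.1 CPM in the WT library at E15. Its log2 ratio was 0.57 at E18 (interval 0.47 to 0.68) and 1.20 at E15 (1.07 to 1.34), the only gene of this list above 50 CPM that passed 2-fold between genotypes, and its genotype difference of 0.88 (SE 0.21) did not pass the adjustment (edgeR adjusted p = 0.776). Lsr, by comparison, had -0.06 and 0.11. The polarity gene Pard3b was 1.25 higher on the log2 scale in KO at E15 (0.79 to 1.72), with 8.70 CPM in KO and 3.67 CPM in WT, and -0.22 at E18. Cxadr, a receptor of the same immunoglobulin family as the JAMs, was at -2.01 at E15 (-2.71 to -1.36), with 25 reads in KO and 96 in WT, and at -0.07 at E18.

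At E18, Sympk, which is named for junctional plaques and also acts in RNA 3′ end processing, had 436 reads in KO and 160 in WT, a log2 ratio of 1.24 (0.98 to 1.51), and 0.10 at E15. Marveld1 had 333 reads in KO and 134 in WT at E18, a log2 ratio of 1.11 (0.81 to 1.41), and -0.44 at E15. Cldn1 had 40 reads in KO and 10 in WT at E18, a log2 ratio of 1.79 (0.77 to 2.96). Cldn15 had 0 reads in KO and 59 in WT at E18, and 31 in KO and 34 in WT at E15. At E18 it was 22.7-fold lower in KO with its count of 0 set to 3 reads. The upper limit of its log2 counting interval there was -4.16. The ratios of Cldn1 and Cldn15 rest on at most 59 reads in a library.

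Between the stages, the scaffold Magi1 was lower at E18 in both genotypes, with log2 ratios of -1.26 in KO (-1.44 to -1.07) and -1.18 in WT (-1.36 to -1.0). The polarity kinase gene Prkci had -1.43 in KO (-1.72 to -1.15) and -0.32 in WT, and Patj had -1.01 in KO and -0.66 in WT. Cldn6 had 70 reads at E18 and 11 at E15 in KO, a log2 ratio of 2.24 (1.31 to 3.31), and 64 at E18 and 1 at E15 in WT, a log2 ratio of 5.70 (3.17 to 11.03). Cgnl1, the gene of the junction protein paracingulin, had 0.67 in KO (0.60 to 0.74) and 0.23 in WT (0.16 to 0.31), and Mpdz 0.91 in KO and 0.39 in WT. In KO 1 gene of 30 was past 2-fold higher and 3 lower at E18, with a median of -0.02 against -0.10 over all genes. In WT it was 1 higher and 2 lower of 31, with a median of 0.004 against -0.12. The share of all genes past 2-fold between the stages was 19.5% in KO and 14.5% in WT.

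Adherens junctions, which share the lateral membrane with tight junctions, were read from 14 genes, all measured. Cdh5, the gene of VE-cadherin, had 387 CPM at E18 and 192 CPM at E15 in KO, and 312 CPM at E18 and 194 CPM at E15 in WT. Its log2 ratio of E18 over E15 was 1.01 in KO (0.95 to 1.07) and 0.69 in WT (0.62 to 0.75), and it rose with stage in the additive test by 0.96 (SE 0.14, edgeR adjusted p = 0.0340). Ctnnb1, the gene of beta-catenin, had 229.6 CPM at E18 and 556 CPM at E15 in KO, and 204 CPM at E18 and 331 CPM at E15 in WT, log2 ratios of -1.28 and -0.70. Its additive stage difference was -0.88 (SE 0.17, edgeR adjusted p = 0.0613), and its genotype ratio was 0.17 at E18 and 0.75 at E15. Per kilobase of exon, Cdh5 at E18 was at 92.0 CPM in KO and 74.3 CPM in WT, below Ocln in both (105 and 123.4).

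Nectin3 had log2 genotype ratios of 1.06 at E18 (0.60 to 1.52) and 0.88 at E15 (0.42 to 1.35), from 139 reads in KO and 58 in WT at E18, and 118 in KO and 61 in WT at E15. Plekha7 had 0.96 at E18 and -1.09 at E15, from 63 reads in KO and 28 in WT at E18, and 35 in KO and 71 in WT at E15. Of the 14 genes, 1 was past 2-fold higher and 0 lower in KO at E18, with a median of -0.15 against 0.003 over all genes, and 0 higher and 1 lower at E15, with a median of -0.09 against -0.007. Between stages 1 was higher and 2 lower at E18 in KO, and 0 higher and 1 lower in WT, with medians of -0.16 in both. The all-gene shares past 2-fold were 11% between genotypes at E18 and 10.1% at E15. Between stages they were 19.5% in KO and 14.5% in WT.

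**Figure D5:**
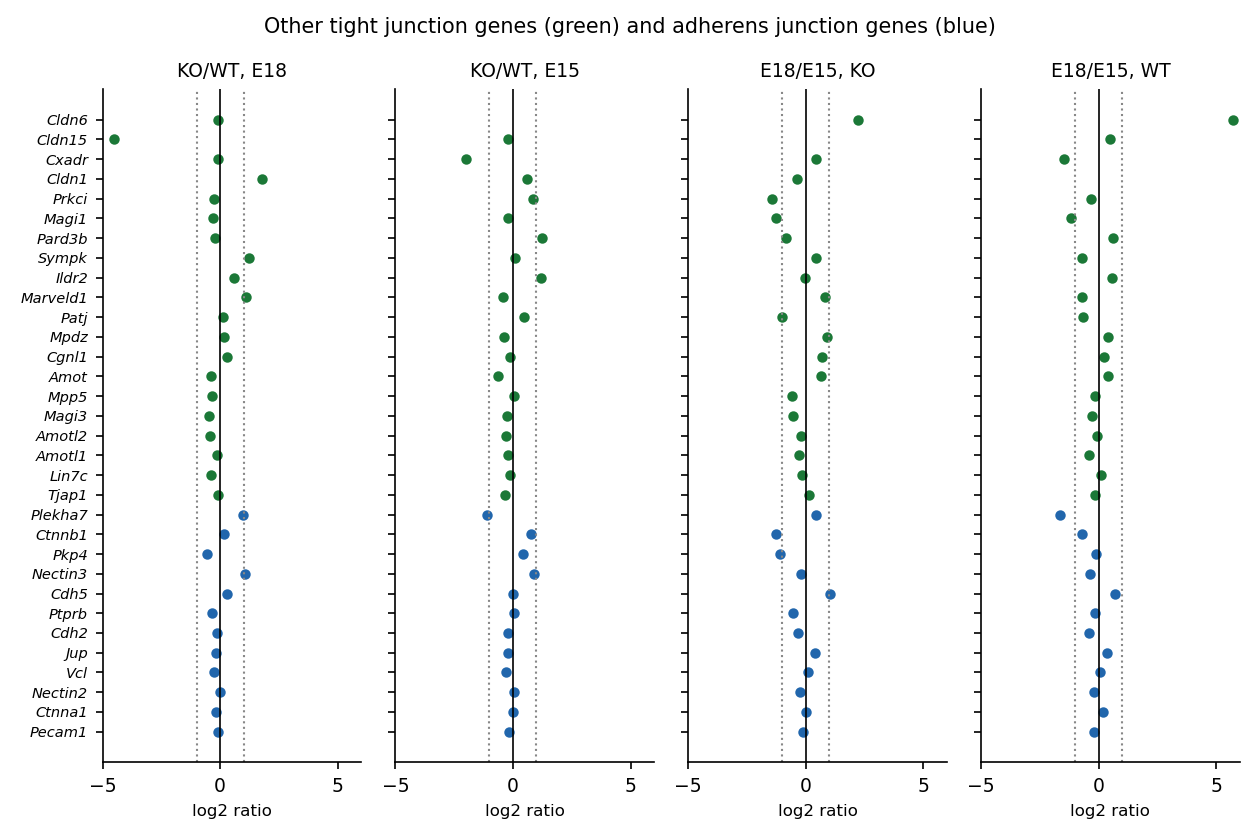
Log2 ratios in the 4 comparisons of other tight junction genes (green) and adherens junction genes (blue) that were past 2-fold in any comparison or at 50 CPM or more in any library, at most 20 per list in order of their largest ratio. Dotted lines mark 2-fold, and Ildr2 lies at 1.20 for KO over WT at E15. A ratio against 0 reads is drawn with the 0 set to 3 reads (Cldn15, KO over WT at E18, -4.50).

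Genes with the most similar profile over the 4 libraries were found by the distance between log2 CPM values centred on their mean, among 9052 genes with at least 5 CPM in every library. For Cldn5 these were Rnaseh2c (distance 0.015), Lrrc8a (0.026) and Magee1 (0.038), and for Ocln they were Oma1 (0.016), Cdpf1 (0.056) and Cry2 (0.066). Within a distance of 0.1 there were 57 genes for Cldn5 and 22 for Ocln, and none of the other 8 members was among them. The closest pair among the 9 genes was Jam2 and Esam at 0.13, with Cldn5 and Jam2 at 0.13 after it, and the farthest was Marveld2 and Jam3 at 0.65. Ocln and its chromosomal neighbour Marveld2 were 0.42 apart. With 4 libraries that differ in depth and cell makeup, these distances are a description. They take no account of counting error, and some of the near genes had few reads (Oma1 18.8 CPM in WT at E15). The order of the nearest genes is therefore not settled.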

How the data were processed

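RNA sequencing counts of brain endothelial cells, 1 library per group, were taken from the authors' deposited tables, 1 table per stage. Per the file headers these hold raw read counts per Ensembl gene, and the authors' deposited CPM is the count over the library total, with a count of 0 set to 0.5 read. Per the submitters' processing notes, Bowtie2 2.2.3, TopHat2 2.0.12, HTSeq 0.6.0 and mm9 were used. Of 20143 identifiers found in GENCODE M21, 90.1% had identical positions there, so coordinates are read as GRCm38.

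Counts were scaled to library totals. Genes entered a comparison with at least 1 CPM in 1 of its libraries and at least 50 reads over both. Log2 ratios had no pseudocount, 0 reads were set to a floor of 3 per library, intervals are exact Clopper-Pearson intervals, and a gene was called at 2-fold. Both this and the additive test (edgeR 4.0.16, DESeq2 1.42.0 as the alternative, genes with at least 1 CPM in 2 libraries) were tested on simulated data. The spread between embryos was not measured. The genes and lists were chosen with earlier results of these data known. Named list genes are those past 2-fold in a comparison or at 50 CPM or more, about 20 in order of the size of their ratio. Ddx3y, Xist and Bsg were added after their values were seen.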

Additional observations from a re-analysis of the deposited data

Results flagged for a closer look

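Ocln had genotype ratios of opposite sign at the 2 stages, each with a counting interval away from 0. The log2 ratio of KO over WT was -0.24 at E18 and 0.29 at E15, a difference of -0.53, from 9713 reads in KO and 9936 in WT at E18, and 7254 in KO and 5650 in WT at E15. The signs held under the scalings and filters tried, including scaling by pan-endothelial markers, and the difference was not tested against variation between embryos. A difference at least as large was found in 26.1% of the genes with at least 5 CPM in every library.

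Tjp1 had stage ratios of opposite sign in the 2 genotypes, with a log2 ratio of E18 over E15 of -0.08 in KO and 0.30 in WT, a difference of -0.38. The ratio in KO was 0.04 with TMM factors and 0.05 with DESeq2 size factors, so the opposite sign depends on the scaling, and the difference between the genotypes was not tested. Among the genes with at least 5 CPM in every library, 39.7% had a difference at least as large.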

How the results depend on the processing

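No paired analysis was possible because each group held 1 library and the groups compared share fewer than 2 replicate numbers. Leaving out a library from the additive test was not run, since no residual degrees of freedom would remain. The count of members past 2-fold was 0 in all 4 comparisons under every setting, also at 1.5-fold, and 0 members passed the additive test under any setting, with adjusted p between 0.211 and 1.00. The all-gene counts past 2-fold, in the order KO over WT at E18, KO over WT at E15, E18 over E15 in KO and in WT, were 4646, 4937, 4693 and 3660 without a filter and 2945, 2880, 4466 and 3804 at 1.5-fold. With at least 5 CPM they were 631 and 724 for genotype at E18 and E15 and 1136 for stage in WT, and with a pseudocount of 1 CPM 840 at E18 for genotype. The median member log2 ratio for KO over WT at E18 was 0.17 with DESeq2 size factors and 0.17 with pan-endothelial scaling, a scaling by 13 markers chosen after seeing the data. That scaling gave 0.051 for KO over WT at E15, against 0.11 by library totals. For stage the median was 0.20 with TMM, 0.21 with DESeq2 size factors and 0.055 with pan-endothelial scaling in KO, and 0.30, 0.29 and 0.075 in WT. Pan-endothelial scaling also turned F11r and Tjp1 to -0.01 and -0.02 for KO over WT at E15. The additive test called 47 genes for genotype with DESeq2, 0 with library totals alone and 0 without a filter, and 719, 102 and 92 for stage, where library totals alone reversed F11r to -0.069 and Jam3 to -0.056. The cause of these shifts was not tested. Depth limits Jam3, whose counting intervals span more than 0.6 on the log2 scale.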
